A study of Mus musculus with 10 samples.

Results

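The giant cadherins *Fat1*, *Fat2*, *Fat3*, *Fat4*, *Dchs1* and *Dchs2*, together with the kinase gene *Fjx1*, form a group of 7 genes among the 22114 protein-coding genes of the count table. The group was chosen by the values of *Fat2*, which had the strongest evidence of a genotype difference in these data. The other 6 genes were then taken, the cadherins as its family and *Fjx1* as a kinase gene of the same pathway. The values of *Fat2* are therefore given as a description with no test. All 7 genes were found by their gene names, and all 7 had at least 10 counts in at least 1 sample and were tested.

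RNA was sequenced from the first pharyngeal arch (PA1), the embryonic tissue that forms the upper and lower jaws, of 10 male mouse embryos at E10.5. The wild-type group held 5 *Grhl2*+/+ embryos and the *Grhl2*-/- group 5 embryos homozygous for a null allele of *Grhl2*, all on a C57BL/6 background, with no agent given to either group. *Grhl2* encodes a transcription factor of the Grainyhead family that is made in the epithelium covering the arch, and the null allele acts in the whole embryo, not only in that epithelium. Each embryo was a separate library of ribosome-depleted total RNA, so epithelium, neural crest derived mesenchyme, vessels, blood and nerve were measured as 1 mixture. In such bulk samples, fewer cells of a type and less RNA per cell cannot be told apart. A difference confined to the epithelium can also be masked by the other tissues. The paper proposes this for mesenchymal transcription factors that rose in *Grhl2*-/- PA1 epithelium by quantitative PCR but were not called in its RNA sequencing.

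Fat and Dachsous cadherins are the largest cadherins known, with long rows of extracellular cadherin repeats and a single pass through the membrane. *Fat4* and *Dchs1* encode a receptor and ligand pair that binds across neighbouring cells, and *Fjx1* encodes the counterpart of Four-jointed, a Golgi kinase that phosphorylates cadherin repeats and so tunes this binding in the fly. The pathway is known for planar polarity, the common orientation of cells within a sheet, and for restraint of growth through the Hippo kinases. *Fat1* and *Fat3* encode proteins that act on the actin cytoskeleton, partly through Ena/VASP proteins. *Fat2* is related to the fly gene *kugelei*, which moves the follicle epithelium together with the WAVE complex and the phosphatase Lar.

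The *Fat2* gene lies at chr11:55250609-55336564 on the minus strand of GRCm38, and GENCODE lists 2 coding transcripts that start at 55336564 and at 55312257 and have 13053 coding bases each. The RefSeq promoter table (GRCm38.p6) holds a window at the second of these starts, and windows for *Fat1*, *Fat3*, *Fat4* and *Dchs2* as well. The outer start of *Fat2* and the starts of *Dchs1* and *Fjx1* were not analysed here. The RefSeq windows of *Fat3* and *Dchs2* lie upstream of the starts that GENCODE gives for these genes, 16501285 on chromosome 9 and 83127948 on chromosome 3. The window of *Fat1*, with its 250 bases at 44949958-44950207 on chromosome 8, lies inside the gene, which starts at 44935447. The 250 bases before the starts of *Fat2* and *Fat3* are shown because these were the members whose levels separated the genotypes. The capitals mark each stretch of 8 bases that came closest to AACCGGTT, the sequence that Grainyhead factors recognise, which reads the same on both strands.

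*Fat2*, chr11:55312258-55312507: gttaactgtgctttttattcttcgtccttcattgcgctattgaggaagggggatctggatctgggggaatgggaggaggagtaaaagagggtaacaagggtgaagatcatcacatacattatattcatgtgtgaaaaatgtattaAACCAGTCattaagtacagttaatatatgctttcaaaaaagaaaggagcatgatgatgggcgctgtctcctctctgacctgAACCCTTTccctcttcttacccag

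*Fat3*, chr9:16502055-16502304: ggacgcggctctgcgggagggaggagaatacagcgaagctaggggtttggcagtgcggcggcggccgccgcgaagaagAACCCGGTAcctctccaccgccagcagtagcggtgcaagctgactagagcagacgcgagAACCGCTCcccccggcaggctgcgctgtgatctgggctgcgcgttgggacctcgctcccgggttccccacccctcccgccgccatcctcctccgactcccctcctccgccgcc

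Both sequences are on the minus strand, and the *Fat2* stretch lies within an intron of the longer transcript, with 0 of its bases in exons of either. Neither stretch held AACCGGTT, and the closest stretches differed from it by 2 bases. *Fat2* held 2 such stretches, which began 105 and 24 bases before the start, and *Fat3* held 3, of which 2 overlap, at 172, 171 and 113 bases before the start. The windows of *Fat1* and *Fat4* also came within 2 mismatches and that of *Dchs2* within 3. Of 32851 windows of 250 bases in the table, 0.116% held AACCGGTT, 3.64% held AACNNGTT and 43.7% came within 2 mismatches of the first. None of the 5 windows of the family held either motif, which says only that these letters are not in these 250 bases.

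Between 22188454 and 28801378 reads per sample were counted, and 3 reads in a library correspond to between 0.104 and 0.136 CPM (counts scaled to the size of the library, after TMM normalisation, which trims extreme genes before libraries are scaled). *Grhl2* itself had 35.6 ± 3.29 CPM (SD, n = 5) in the wild-type and 4.53 ± 1.45 CPM (SD, n = 5) in the *Grhl2*-/- samples, with 81 to 178 reads left in the latter. Genotype differences were fitted by limma-voom over 14561 genes, and a gene was called at a false discovery rate (FDR, Benjamini-Hochberg over all genes tested) below 0.01. This called 1.96% of the genes tested, with 1.09% called as lower in *Grhl2*-/- PA1 and 0.879% called as higher. The ranges of the 2 genotypes did not overlap for 8.88% of all genes tested. Second-arch *Hox* genes were near 0, with a summed level of *Hoxa2*, *Hoxb2*, *Hoxb3* and *Hoxa3* of at most 1.83 CPM in any sample, and *Hoxa3* was under 3 reads in all samples. The 7 neural crest mesenchyme markers of the arch, *Prrx1* and *Twist1* among them, summed to between 1378 and 1747 CPM in wild-type and between 1123 and 1377 CPM in *Grhl2*-/- samples. These ranges almost met, at 1378 CPM in WT3-588 and 1377 CPM in KO2-566. Taken singly, only *Twist1* and *Msx1* had ranges that did not overlap. Of these 7, 1 was called lower, *Msx1* (log2 fold change -0.66 ± 0.11, SE, limma-voom FDR 0.00595), and none was called higher, and the part of mesenchyme in the family's values was not tested.

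*Fat2* was the family member that fell. Its level was 13.1, 12.5, 14.02, 15.3 and 13.0 CPM in the wild-type samples WT1-566, WT5-566, WT1-568, WT8-568 and WT3-588. It was 1.56, 1.39, 1.43, 0.927 and 1.05 CPM in the *Grhl2*-/- samples KO2-566, KO2-568, KO1-588, KO3-604 and KO1-628. The lowest wild-type sample was well above the highest *Grhl2*-/- sample, and no sample of one genotype approached the other.

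The mean *Fat2* level was 13.6 ± 1.11 CPM (SD, n = 5) in wild-type and 1.27 ± 0.269 CPM (SD, n = 5) in *Grhl2*-/- PA1, a log2 fold change of -3.41 ± 0.15 (SE), which corresponds to a 10.6-fold lower level. The wild-type libraries held 288 to 390 *Fat2* reads and the *Grhl2*-/- libraries 24 to 45 reads. The transcript was thus still detected in each *Grhl2*-/- sample, above the floor of 3 reads. The SD of *Fat2* on the log2 scale was 0.12 in the wild-type and 0.31 in the *Grhl2*-/- samples, where counting error alone would give 0.08 and 0.24.

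**Figure D1:**
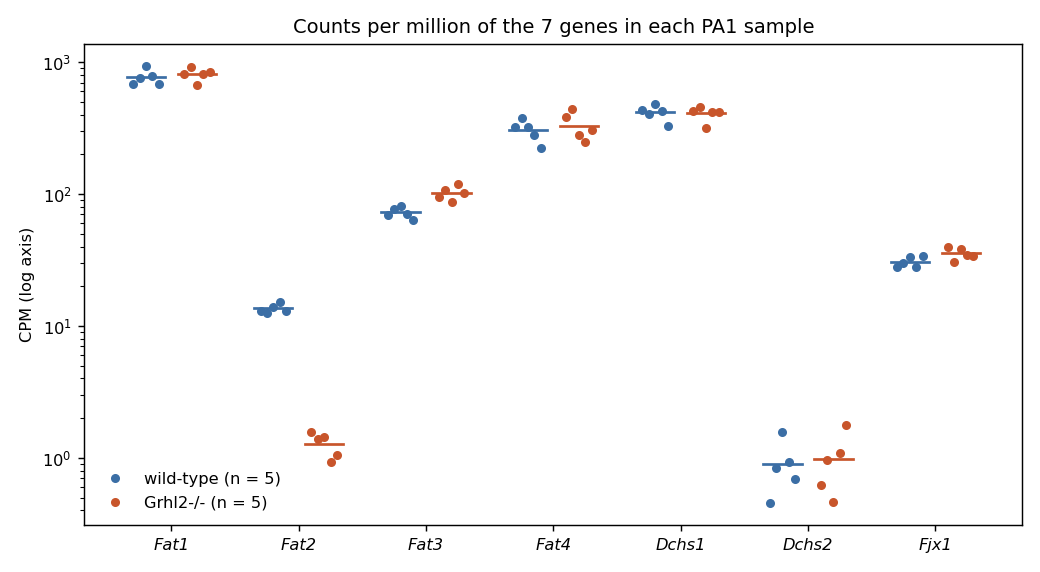
Level of the 7 genes in each sample (CPM, log axis), with wild-type samples in blue, *Grhl2*-/- samples in orange and a line at the mean of 5. *Fat2* lies between 12.5 and 15.3 CPM in wild-type and between 0.927 and 1.56 CPM in *Grhl2*-/- samples, and *Fat3* is the other gene whose samples do not overlap.

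Of the 9 epithelial markers examined beside *Fat2*, 5 were called lower (*Cdh1*, *Epcam*, *Krt5*, *Cldn6* and *Esrp1*), beside 1.09% of all genes, none was called higher and 4 were not called. The summed level of the 9 markers was between 320 and 427 CPM in wild-type and between 174 and 257 CPM in *Grhl2*-/- samples. *Cdh1*, the epithelial cadherin, had a log2 fold change of -2.47 ± 0.18 (SE) with an FDR of 1.66e-05, and *Epcam* one of -2.51 ± 0.18 (SE) with an FDR of 1.04e-05. The keratin genes of simple epithelium were among those not called, with log2 fold changes of -0.40 ± 0.20 (SE) for *Krt8* and -0.07 ± 0.19 (SE) for *Krt18*. *Trp63*, a regulator of stratified epithelium, had -0.24 ± 0.07 (SE) with an FDR of 0.0566, and *Grhl3*, a relative of *Grhl2*, had 0.28 ± 0.17 (SE) with an FDR of 0.302. No marker of the list was at 0, and the part of epithelial cell number or epithelial gene loss in the *Fat2* values was not tested.

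The other member with separated genotypes was *Fat3*, and it moved the other way. *Fat3* encodes a cadherin best known in the nervous system, where it shapes the processes of retinal amacrine cells. In the wild-type samples, in the order used above, its level was 69.5, 77.6, 81.6, 70.9 and 63.3 CPM. In the *Grhl2*-/- samples it was 95.7, 107, 86.8, 119 and 101 CPM. The highest wild-type value, in WT1-568, lay below the lowest *Grhl2*-/- value, in KO1-588.

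*Fat3* rose from a mean of 72.6 ± 7.16 CPM (SD, n = 5) to one of 102 ± 12.1 CPM (SD, n = 5). This was a 1.40-fold difference, or 0.49 ± 0.09 (SE) on the log2 scale, at a limma-voom FDR of 0.00907. The 95% interval of the log2 fold change was 0.29 to 0.68. The counts behind it were 1530 to 2269 reads in wild-type and 2433 to 3081 reads in *Grhl2*-/- libraries, so that counting error was small beside the spread between embryos. With the label number (last in each sample name) as a replicate block, the log2 fold change was 0.44 with an FDR of 0.0118. The call of *Fat3* thus lay close to its threshold. It was lost in 9 of the 10 fits that left out 1 sample each, and was kept without KO1-588, with FDR values between 0.00404 and 0.0277 and log2 fold changes between 0.42 and 0.54. The FDR was below 0.05 in all 21 alternatives, of which 1 is the main fit itself read at a threshold of 0.05.

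Neural markers were compared with *Fat3* because of its known expression. The 10 sensory neuron markers summed to between 38.4 and 766 CPM in wild-type and between 259 and 959 CPM in *Grhl2*-/- samples, and none was called. Their sum was only 43.3 CPM in WT1-566 and 38.4 CPM in WT1-568, against at least 259 CPM in each of the others. *Fat3* in these samples, at 69.5 and 81.6 CPM, was near the lower and at the upper end of the wild-type range. With the mean neuron marker level as a covariate, the log2 fold change of *Fat3* was 0.51 with an FDR of 0.0179. Without WT1-566 and WT1-568 it was 0.51 with an FDR of 0.0386, and the call was lost in both fits. The 5 neuroepithelial markers summed to between 20.8 and 36.9 CPM in wild-type and between 41.7 and 87.2 CPM in *Grhl2*-/- samples, which did not overlap. *Sox2* was the most abundant of these, with a log2 fold change of 0.61 ± 0.13 (SE) and an FDR of 0.0202. Endothelial markers summed to between 293 and 329 CPM in wild-type and between 324 and 383 CPM in *Grhl2*-/- samples. The part of sensory neurons, neuroepithelial tissue or endothelial tissue in the *Fat3* difference was not tested.

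*Fat4* and *Dchs1*, the receptor and ligand pair, were both abundant and neither was called. The wild-type samples had 324, 380, 324, 280.2 and 223 CPM of *Fat4*, and the *Grhl2*-/- samples 385, 439, 279, 247 and 304 CPM. The values of the genotypes ran through each other, from WT3-588 as the lowest to KO2-568 as the highest. The log2 fold change of *Fat4* was 0.10 ± 0.17 (SE) with an FDR of 0.719, and the 95% interval ran from -0.26 to 0.47.

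For *Dchs1* the wild-type samples had 437, 408, 482, 424 and 327 CPM. The *Grhl2*-/- samples had 428, 457, 317, 418 and 421 CPM. In each genotype 1 sample stood below the other 4, WT3-588 and KO1-588. The log2 fold change of *Dchs1* was -0.02 ± 0.11 (SE), with a 95% interval from -0.27 to 0.22 and an FDR of 0.909, so a difference of a size like that of *Fat2* lay far outside its interval. Its sign turned in 3 of the alternative fits that did not leave out a single sample.

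*Fat1*, whose protein acts on actin at cell edges, had the highest level of the 7 genes. Its level was 684, 764, 938, 788 and 683 CPM in the wild-type samples and 818, 918, 674, 808 and 843 CPM in the *Grhl2*-/- samples. The ranges covered each other almost wholly. The log2 fold change was 0.08 ± 0.10 (SE), with a 95% interval from -0.13 to 0.29 and an FDR of 0.634.

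For *Fjx1*, the kinase gene, the wild-type samples had 27.9, 30.1, 33.2, 28.1 and 34.0 CPM and the *Grhl2*-/- samples 39.8, 30.7, 38.5, 34.6 and 33.9 CPM. Its lowest *Grhl2*-/- sample, KO2-568, lay inside the wild-type range. The log2 fold change was 0.21 ± 0.08 (SE), with a 95% interval from 0.02 to 0.39, and the FDR of 0.132 missed the threshold.

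*Dchs2*, the second Dachsous gene, was close to the limit of detection, with 10 to 44 reads in wild-type and 13 to 46 reads in *Grhl2*-/- libraries. Its level ranged from 0.454 to 1.58 CPM in wild-type and from 0.464 to 1.78 CPM in *Grhl2*-/- samples. The log2 fold change was 0.05 ± 0.39 (SE), with a 95% interval from -0.80 to 0.89 and an FDR of 0.953. The SD of *Dchs2* on the log2 scale was 0.64 in wild-type and 0.73 in *Grhl2*-/- samples, where counting error alone would give 0.29 and 0.28, so the spread between samples was the larger part of its error.

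**Figure D2:**
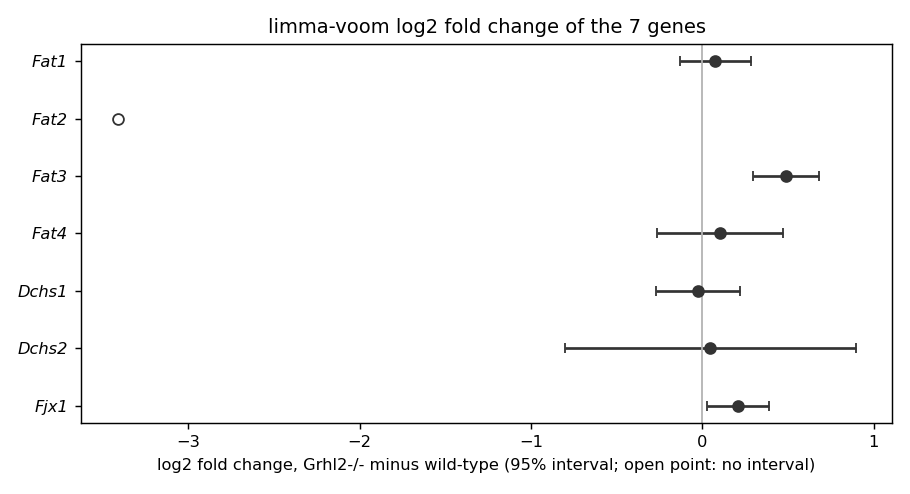
Log2 fold change of each gene between *Grhl2*-/- and wild-type samples by limma-voom, with 95% intervals as bars (n = 5 each) for all but *Fat2*, whose open point is a description since its values chose the group. *Fat2* is at -3.41 and *Fat3* at 0.49, and the intervals of *Fat1*, *Fat4*, *Dchs1* and *Dchs2* include 0.

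Among the 6 members other than *Fat2*, 0 were called lower and 1, *Fat3*, was called higher, beside the 1.09% and 0.879% of all genes. The median log2 fold change of these 6 genes was 0.09, beside 0.01 over all genes tested. The genotypes did not overlap for 1 of the 6, beside 8.88% of all genes.

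Levels between genes were compared as CPM per kb of merged exons, since the genes differ in length from 3134 bases (*Fjx1*) to 21478 bases (*Fat3*). In wild-type PA1 the order of the levels was *Fat1* (49.3 ± 6.66 CPM per kb, SD, n = 5), *Dchs1* (37.6 ± 5.14), *Fat4* (17.8 ± 3.40), *Fjx1* (9.78 ± 0.904), *Fat3* (3.38 ± 0.333), *Fat2* (0.934 ± 0.0767) and *Dchs2* (0.0834 ± 0.0391). No gene's range over the 5 samples overlapped that of the next in this order. The order of the first 5 genes was the same in *Grhl2*-/- PA1, again with no overlap between neighbours. *Fat2* there fell to 0.0873 ± 0.0185 CPM per kb, within the range of *Dchs2* (0.0911 ± 0.0475), and these neighbours did not differ beyond their spread.

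The position of *Fjx1* depended on the length used. Per kb of coding sequence, *Fjx1* (22.7 ± 2.10 in wild-type) was level with *Fat4* (20.5 ± 3.91), and their ranges overlapped in both genotypes. The order of the other 6 genes in each genotype was the same with merged exons, the longest coding transcript and the coding sequence. As a share of the summed per-length level of the 7 genes, *Fat2* made up 0.70% to 0.890% in wild-type and 0.0529% to 0.0940% in *Grhl2*-/- samples. *Fat3* made up 2.75% to 2.96% in wild-type and 3.41% to 4.59% in *Grhl2*-/- samples. *Fat1* and *Dchs1* together held the largest part in both genotypes, with mean shares of 41.4% and 31.6% in wild-type and of 41.7% and 29.6% in *Grhl2*-/- PA1.

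**Figure D3:**
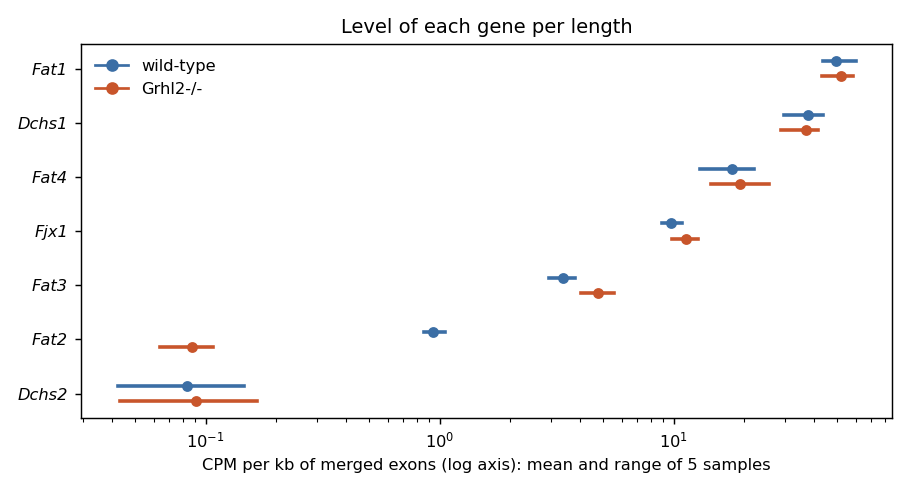
Mean level per kb of merged exons (points) and range over 5 samples (bars) for each gene and genotype, on a log axis. *Fat2* is at 0.934 CPM per kb in wild-type and at 0.0873 CPM per kb in *Grhl2*-/- samples, where it meets the range of *Dchs2*.

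The members were also compared from sample to sample after the mean of each genotype was taken off, since this variation does not depend on the genotype difference. By Pearson r over the 10 samples, *Fat1* and *Dchs1* were the pair most alike, with an r of 0.822 and a Spearman rho of 0.758. The exact two-sided permutation p within genotypes of *Fat1* and *Dchs1* was 0.00882 for r and 0.0240 for rho, and adjusted over the 21 pairs of members these became 0.138 and 0.213. Without the 2 samples farthest from the median, WT1-568 and KO1-588, r was 0.654, below the 0.749 that *Fat3* and *Dchs1* had without their own 2, KO1-588 and KO3-604. By rho, *Fat1* and *Dchs2* came first, at 0.770 (exact permutation p 0.0158, adjusted 0.213). The 3 next pairs by r were *Fat1* and *Dchs2* (0.788), *Fat3* and *Dchs1* (0.745), and *Fat1* and *Fat3* (0.732). The adjusted p of r was 0.138 for each of these pairs, and 0 of the 21 pairs passed an adjusted p of 0.05. *Fat4* and *Dchs1*, the receptor and ligand pair, had an r of 0.612 and a rho of 0.576 with adjusted permutation p-values of 0.290 and 0.466, and r was 0.337 without the 2 farthest samples, WT3-588 and KO2-568.

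Long transcripts can share a common shift from library to library, so the same deviations were set beside the mean of 1354 other genes with more than 10000 bases of merged exons and a mean of at least 1 CPM, from which the members were left out. That mean deviated by at most 0.12 on the log2 scale in either direction. *Dchs2* followed it most closely, with an r of 0.676 and a rho of 0.648 (exact permutation p of 0.0485 and 0.0610, adjusted over 7 genes 0.249 and 0.374), and r was 0.233 without WT1-566 and KO1-588. For *Fat1* and *Fat3* r was 0.587 and 0.580 (adjusted permutation p 0.249 for both), and without the same samples it was 0.0392 and 0.306. With this mean as a covariate, which was chosen after the data were seen, the log2 fold change of *Fat3* was 0.49 with an FDR of 0.00375. The label numbers shared by embryos held at most 3 samples each, too few for a correlation within a number. Some samples alike in *Fat1* and *Dchs1* shared numbers. WT3-588 and KO1-588 were low in both genes (*Fat1* -0.16 and -0.26, *Dchs1* -0.34 and -0.35 on the log2 scale). WT1-568 and KO2-568 were high (*Fat1* 0.29 and 0.18, *Dchs1* 0.23 and 0.17). Others did not follow this: WT8-568 was near 0 in both genes (0.04 and 0.04), and WT1-566 was low in *Fat1* (-0.16) but not in *Dchs1* (0.08). The part of the label number in that likeness was not tested.

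**Figure D4:**
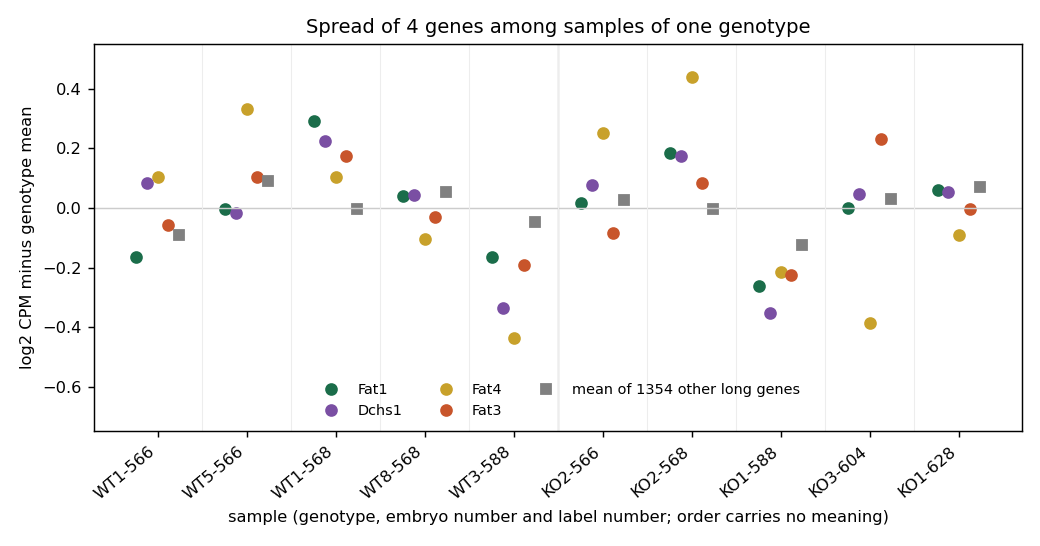
Log2 CPM of *Fat1*, *Dchs1*, *Fat4* and *Fat3* and the mean of 1354 other long genes in each sample, less the mean of the sample's genotype. *Fat1* and *Dchs1* lie close together in most samples, both high in WT1-568 and low in WT3-588 and KO1-588, and the long genes stay within 0.12 of 0.

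The genes whose deviations were most like those of *Fat2* over the 10 samples were *Scamp2* (Pearson r 0.961), *Yif1b* (0.949), *Axin1* (0.945), *Siah1a* (0.916) and *Sprtn* (0.913), out of 11988 genes with a mean of at least 50 counts. None of these 5 genes was called between genotypes, and their log2 fold changes lay between -0.13 (*Axin1*) and 0.07 (*Yif1b*). These values describe the samples only, since the *Fat2* counts of the *Grhl2*-/- samples were low.

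Of the 4 genes tested nearest to *Fat2* on chromosome 11, 1 was called lower and 1 higher, beside 1.09% and 0.879% of all genes, and none had a log2 fold change of the size of that of *Fat2*. *Slc36a1*, an amino acid transporter gene on the side of the 3′ end of *Fat2*, had mean levels of 10.1 ± 0.502 CPM in the wild-type samples and of 10.3 ± 1.33 CPM in the *Grhl2*-/- samples (SD, n = 5 each). Its log2 fold change was 0.02 ± 0.09 (SE). *Slc36a2*, beyond it, had 2 to 8 reads in wild-type and 8 to 13 reads in *Grhl2*-/- libraries. On the other side, *Sparc*, which encodes a matrix glycoprotein, rose by 0.57 ± 0.05 (SE) on the log2 scale with a limma-voom FDR of 3.13e-05, and means of 124 ± 2.68 CPM (SD, n = 5) in wild-type and 184 ± 11.9 CPM (SD, n = 5) in *Grhl2*-/- PA1. This call was kept without each sample in turn. *Atox1*, a copper chaperone gene, had a log2 fold change of -0.30 ± 0.05 (SE) with an FDR of 0.00595, and means of 47.7 ± 1.97 CPM (SD, n = 5) and 38.8 ± 2.31 CPM (SD, n = 5). The *Atox1* call was kept in 2 of the 10 fits that left out a sample.

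Across 5 lists of genes of the pathway around these cadherins, 0 of 65 genes tested were called in either direction by limma-voom, beside 1.96% of all genes, and 17 of the 65 had an unadjusted p below 0.05, beside 4146 of all 14561. edgeR's quasi-likelihood test also called 0, beside 2.08% of all genes, and DESeq2 called 5 (*Frmd6*, *Lix1*, *Lix1l*, *Stk4* and *Wwc1*), beside 7.37% of all genes, a share like that of the lists. The lists were fixed with earlier results of these data known. Levels within the epithelium alone were not measured, so genes not called may still differ there.

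Of the 14 partners of Fat and Dachsous proteins, 0 were called, and the median log2 fold change was -0.02. *Ctnnb1*, which encodes β-catenin, was the most abundant of them at 1811 ± 43.0 CPM in wild-type and 1772 ± 63.6 CPM (SD, n = 5 each) in *Grhl2*-/- PA1. *Enah*, which encodes an actin regulator of the Ena/VASP family, was at 513 ± 8.79 and 520 ± 30.7 CPM. The paper reports by quantitative PCR that its epithelial splice form fell and its mesenchymal form rose in *Grhl2*-/- PA1 epithelium. Counts per gene do not separate splice forms, so a shift between them was not measured here. *Lix1*, the mouse counterpart of the fly gene *lowfat*, had the lowest FDR of the list, 0.0281, with 59.8 ± 14.3 CPM in wild-type and 37.3 ± 6.49 CPM (SD, n = 5 each) in *Grhl2*-/- samples.

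Of the 10 genes of the WAVE complex and Lar-type phosphatase that act with *Fat2* in the fly, 0 were called, and the median was -0.01. *Ptprf*, which encodes the phosphatase Lar, had means of 600.1 ± 48.0 CPM in wild-type and of 573 ± 44.4 CPM (SD, n = 5 each) in *Grhl2*-/- PA1. *Nckap1*, a subunit of the WAVE complex, was at 325 ± 5.40 and 323 ± 8.21 CPM. Their 95% intervals of log2 fold change were -0.21 to 0.07 for *Ptprf* and -0.08 to 0.05 for *Nckap1*.

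Of the 14 genes of the Hippo kinase core, 0 were called, and the median was -0.05. *Taok1* and *Mob1a* were the most abundant, with log2 fold changes of 0.02 ± 0.05 (SE) and -0.10 ± 0.04 (SE). *Wwc1*, which encodes the upstream scaffold Kibra, came closest to a call with a log2 fold change of -0.36 ± 0.07 (SE) and an FDR of 0.0117. Its ranges did not overlap, at 20.7 to 25.0 CPM in wild-type and 16.1 to 19.3 CPM in *Grhl2*-/- samples. The genotypes did not overlap for 3 of the 14 genes and for 0 in the other 4 lists, which makes 3 of 65, beside 8.88% of all genes.

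Of the 13 Yap and Tead effectors and targets, 0 were called, and the median was -0.03. *Tead2* had means of 554 ± 21.7 CPM in wild-type and of 509 ± 24.2 CPM (SD, n = 5 each) in *Grhl2*-/- PA1, with an FDR of 0.0838. *Yap1*, the coactivator that the Hippo kinases restrain, was at 422 ± 29.0 and 409 ± 24.04 CPM. *Ankrd1*, a Yap target, had 0 to 2 reads in wild-type and 2 to 14 reads in *Grhl2*-/- libraries, so its fitted value is not used as a fold change, and the median of the list was -0.03 also with *Ankrd1* at the bound set by 3 reads per library.

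Of the 14 core planar polarity genes tested, 0 were called, and the median was 0.09. *Fzd3*, a receptor, had a log2 fold change of 0.12 ± 0.07 (SE). *Vangl2*, a membrane protein of the opposite side of the polarised cell, had -0.04 ± 0.05 (SE). *Prickle4* did not have 10 counts in any sample and was not tested.

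**Figure D5:**
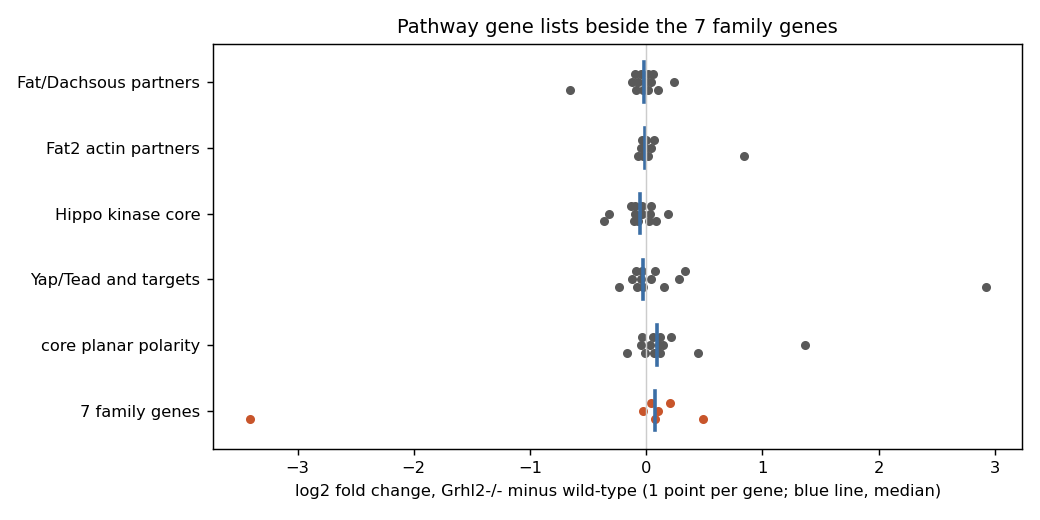
Log2 fold change of each gene in 5 pathway lists and in the family of 7 genes, with a blue line at each median. The list medians lie between -0.05 and 0.09, *Fat2* is the point at -3.41, and the rightmost point is *Ankrd1*, which had at most 2 reads in each wild-type library.

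The exons of *Fat1*, *Fat4*, *Dchs1* and *Dchs2* overlap exons of annotated genes on the opposite strand, and those of *Fat2*, *Fat3* and *Fjx1* overlap none. The libraries marked strand. None of the 50-base words of the members' transcripts occurred in transcripts of other genes, so that reads of one member could not be assigned to another by identical sequence.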

How the data were processed

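Reads from 10 PA1 libraries were aligned by the authors to GRCm38 with STAR and counted with featureCounts; the submitters' processing notes also name edgeR 3.18.1 and limma 3.32.7. The deposited counts are raw whole-number counts for 22114 protein-coding genes. A second deposited table holds the authors' own comparison (fold changes and adjusted p-values) and was not used.

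Counts were normalised by TMM, transformed by voom and fitted with limma 3.58.1 in R 4.3.3 with genotype as the only term, for the 14561 genes that reached 10 counts in any sample. Alternatives were edgeR 4.0.16 (quasi-likelihood), DESeq2 1.42.0 with independent filtering off, other scalings, filters, thresholds and covariates, the label number as a replicate block, and leaving out each sample. Log2 CPM used a prior count of 0.5. Each sample is a separate embryo. For lengths and coordinates, 21721 of the 22114 identifiers were matched to GENCODE release M21 (GRCm38). No 2 samples of a genotype agreed within sampling noise (chi-square per gene 6.93 to 25.1 over 20 pairs).

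The members, lists and tests were chosen with earlier results of these data known. Named genes are the 7 members, *Grhl2*, in each list up to 4 called genes and the 2 most abundant, the 2 tested genes on each side of *Fat2*, and the 5 genes most like *Fat2* from sample to sample; cell type markers are named where a result is set beside them, outside this limit; *Lix1*, *Wwc1*, *Ankrd1*, *Prickle4* and the genes DESeq2 called were added after their values were seen. Fits were tested on simulated counts. Total counts were 22188454 to 28801378 per sample, and floors of 3 reads cover counting error only.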

Additional observations from a re-analysis of the deposited data

Results flagged for a closer look

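Among 36 sets of 5 samples examined for a sample far from the rest (the 7 members, *Grhl2* and 10 marker lists in each genotype), 2 held one, where chance gives about 1 in 20. Both were in the same sample, KO1-588. Its *Dchs1* level of 317 CPM was the lowest of the *Grhl2*-/- samples, and the gap to the next was 0.723 of the range. Its neuroepithelial marker sum of 87.2 CPM was the highest, with a gap of 0.811 of the range. Without KO1-588 the log2 fold change of *Dchs1* was 0.06 with a limma-voom FDR of 0.694. No explanation was tested.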

How the results depend on the processing

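*Fat2* stayed between -3.49 and -3.19 on the log2 scale in all 21 alternatives. *Fat3* was above 0 in all of them, but its call was lost with the label number as a replicate block (0.44, FDR 0.0118), with the neuron covariate (0.51, FDR 0.0179) and, in an alternative chosen after the data were seen, without WT1-566 and WT1-568 (0.51, FDR 0.0386). Leaving out 1 sample at a time gave 0.42 to 0.54. *Fat1*, *Fat4*, *Dchs1*, *Dchs2* and *Fjx1* were called in none of the alternatives. *Dchs1* turned to 0.0014 with the replicate block, 0.0457 with the neuron covariate and 0.0648 without those samples, and *Dchs2* to -0.30 with the block, which also moved *Fat4* from 0.10 (FDR 0.719) to 0.33 (FDR 0.0831). With 1 sample left out, the log2 fold change ranged from -0.11 to 0.0565 for *Dchs1*, -0.20 to 0.28 for *Dchs2*, -0.0103 to 0.19 for *Fat4*, -0.0117 to 0.0349 for *Enah*, -0.00858 to 0.0456 for *Taok1* and -0.0515 to 0.0553 for *Slc36a1*. *Nckap1* turned to 0.00577 with library size alone and *Enah* to -0.0289 with the block. The cause was not tested for any of these.

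Over all genes, 158 were lower and 128 higher by limma-voom. DESeq2 gave 553 and 520, FDR below 0.05 gave 564 and 559, the replicate block 69 and 60, and fits without WT1-566 and WT1-568 90 and 19. The neuron covariate gave 60 higher and the long gene covariate 194 higher. Leaving out 1 sample gave 110 to 249 lower (most without KO1-588) and 42 to 143 higher (fewest without WT8-568). Of the 65 pathway genes, DESeq2 called 4 lower and 1 higher, FDR below 0.05 called 3 lower and 1 higher, the long gene covariate 1 lower (*Wwc1*), and leaving out 1 sample 0 to 1 higher (*Lix1l*, without KO1-588). Samples of both genotypes with the same label number correlated at -0.237 to 0.420 over 5 pairs (mean 0.105) in their deviations from the genotype means, and the 20 other pairs at -0.0254 on average. What the number stands for is not given in the sources used here, and it was not taken as a pairing. Counting error made up more of the spread of *Fat2* in *Grhl2*-/- samples (0.24 of an SD of 0.31, log2) than of that of *Dchs2* there (0.28 of 0.73).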
